A study of Mus musculus with 441 samples.

Results

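The genes described here are 37 genes of DNA replication, taken as a fixed list of names, and all 37 were found among the 13561 genes of the deposited expression table. They were followed in 441 single cells that had been sorted by FACS, with MHC class II tetramers, as beta-cell-specific CD4 T cells from dissociated mouse pancreatic islets. Each cell was sequenced with a full-length SMART-Seq2 protocol, which reads the polyadenylated RNA of 1 cell along its whole length. The 2 groups were the HIP tetramer sort (184 cells) and the Ins tetramer sort (257 cells), and the labels spell out neither abbreviation. The labels give no strain, genotype, age or treatment for the mice and name no animal, so each sort was 1 sample and no difference below has a replicate check.

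A cell copies its genome once per division. In G1 the origin recognition complex, Cdc6 and Cdt1 load the Mcm2 to Mcm7 helicase onto DNA, and at the start of S phase kinases, among them cyclin E with Cdk2, activate it together with Cdc45 and the GINS complex. Polymerases then extend primers around the sliding clamp PCNA, the lagging strand is joined from Okazaki fragments, and enzymes of nucleotide supply feed the reaction. Many of these genes are transcribed under E2F factors, which are released as a cell passes from G1 into S phase, and T cells switch them on when they divide after antigen contact.

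The authors' annotation split the cells into a dividing CD4 T cell class (9 HIP and 35 Ins cells), T follicular helper cells (111 HIP and 61 Ins), regulatory T cells or Tregs (3 HIP and 115 Ins), cluster 2, annotated as activated CD4 T cells (61 HIP and 25 Ins), and cluster 4, annotated as B cells (21 Ins cells and no HIP cell). The follicular helper, Treg and cluster 2 cells are called the other T cells below, 376 in all. Lineage markers were checked first. Cd3e, a chain of the T cell receptor complex, was detected in 44 of 44 dividing cells and 362 of 376 other T cells, while the CD8 chain gene Cd8a was detected in 0 of 44 dividing and 11 of 376 other T cells. Cd8b1, the gene of the other CD8 chain, was detected in 14 of 44 dividing cells (31.8%, up to 168.6 TPM) and 100 of 376 other T cells (26.6%, up to 1208 TPM). In cluster 4 Cd3e was detected in 1 of 21 cells, the B cell gene Cd79a in 19 and the plasma cell gene Sdc1 in 20. Expression was read as TPM, a transcript's share of a cell's RNA per transcript length, scaled to a total of 1000000. A cell was counted as carrying a gene, or the gene as detected, from 1 TPM upwards. Sequencing depth is unknown because TPM keeps none. The number of genes above 0 stands in for it, with a median of 3992 in HIP and 3610 in Ins dividing cells, against 1985 in HIP and 2008 in Ins other T cells. Intervals given with shares are exact Clopper-Pearson 95% intervals. They cover counting error only, as does the limit of 3 cells given with a share of 0.

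Promoters were searched for the core motifs TTTGGCGC, TTTCCCGC, TTTCGCGC and TTTGCCGC, forms of the site bound by E2F factors, on both strands of the 250 bases before the start of each gene in RefSeq (build GRCm38.p6). Of the 37 genes, 30 had a window in that table, and Ccne2, Prim2, Pole, Gins1, Rfc2, Mcm4 and Gins2 had none. A match was found for 8 of the 30 (26.7%), which were Mcm5, Mcm6, Mcm7, Cdc6, Pola1, Rfc3, Uhrf1 and Hells. Among all 27025 genes with a window, 583 had a match (2.16%). The motifs share bases, so 1 stretch can hold overlapping matches on the 2 strands. A match describes letters only, and no match says only that these letters are not in the window. The stretches below lie before 3 of these genes, are written 5′ to 3′ on the strand of the gene and carry the matches in capitals. They show the site in 2 helicase subunits and in the catalytic subunit of the priming polymerase. The Mcm6 stretch is chr1:128359719-128359841 on the minus strand, with its first match 110 and its last 47 bases before the start. The Mcm5 stretch is chr8:75109330-75109393 on the plus strand, with overlapping matches 153 and 149 bases before the start. The Pola1 stretch is chrX:93632260-93632319 on the minus strand, with its match 138 bases before the start.
Mcm6: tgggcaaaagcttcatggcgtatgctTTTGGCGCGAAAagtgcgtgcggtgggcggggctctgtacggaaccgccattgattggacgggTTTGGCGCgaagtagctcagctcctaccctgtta
Mcm5: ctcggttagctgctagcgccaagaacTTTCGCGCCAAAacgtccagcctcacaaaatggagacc
Pola1: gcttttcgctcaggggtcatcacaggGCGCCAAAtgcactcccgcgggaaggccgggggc

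Replication genes were carried by the dividing class as a set and by the other classes a few at a time. The number of the 37 genes detected per cell had a median of 30 in HIP dividing cells (range 10 to 36) and 27 in Ins dividing cells (range 8 to 35). The other T cells had a median of 3 in the HIP sort (range 0 to 32) and 3 in the Ins sort (range 0 to 28). By class, the median was 3 in HIP and 3 in Ins follicular helper cells, 5 in the 3 HIP Tregs and 3 in Ins Tregs, 4 in HIP and 4 in Ins cells of cluster 2, and 4 in cluster 4. The summed level of the 37 genes had a median of 12268 TPM for HIP and 9691 TPM for Ins dividing cells, against 1163 TPM in HIP and 1134 TPM in Ins other T cells. Of the other T cells, 264 (70.2%) carried 4 or fewer of the genes.

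Dividing cells also had more genes detected, so the count was repeated in cells with 2500 or more genes. Among these the median was 28 of the 37 genes in 42 dividing cells and 6 in 64 other T cells, with a range of 8 to 36 in the dividing cells and 1 to 32 in the other T cells. The ranges overlapped, and above this minimum the dividing cells still had more genes detected, with a median of 3632.5 against 2679.5 in the other T cells. The part of gene number in the gap was not tested. Within the dividing class the replication gene count still followed the number of genes detected, with a Pearson correlation of 0.48 and a Spearman correlation of 0.58 over 44 cells that share their class and, in part, their sort. Blocks of 96 consecutive cell numbers, which the labels do not name as plates, gave medians of 32.5 and 29 for the HIP blocks, with 30, 27 and 23 for the Ins blocks of dividing cells. In the same order, these cells had a median of 3796 and 3992 genes detected per HIP block, with 4122, 3595.5 and 3164 per Ins block.

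**Figure D1:**
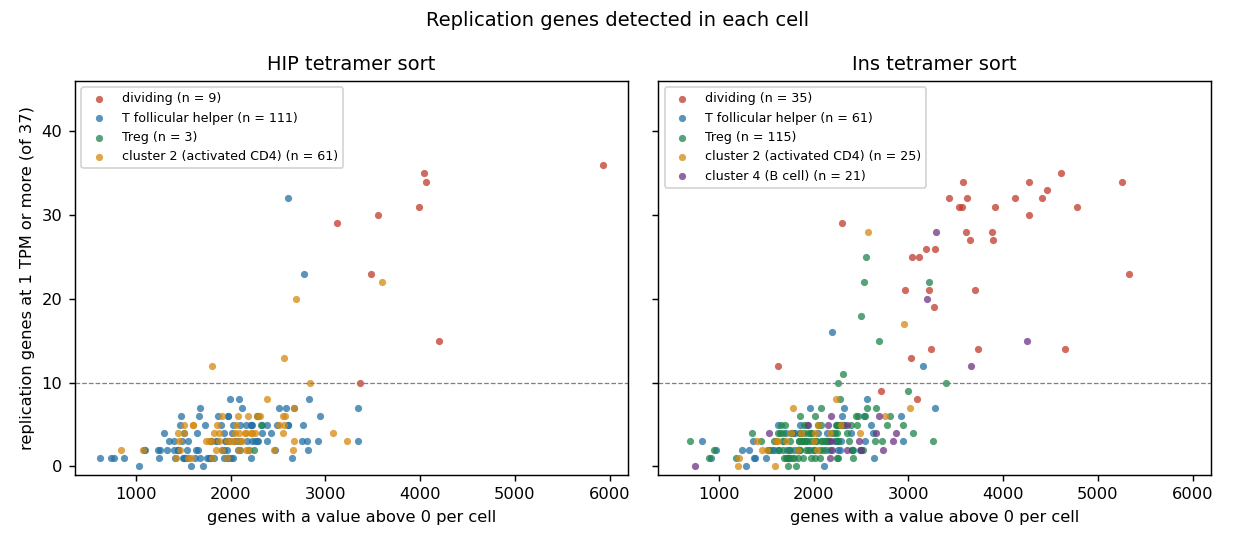
Each point is 1 cell, with the genes above 0 on the x axis, the number of the 37 replication genes at 1 TPM or more on the y axis, colours for the annotated classes and a dashed line at 10 genes. Dividing cells lie between 8 and 36 replication genes, and most other T cells lie at 4 or fewer, with 19 of 376 at 10 or more.

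The difference between dividing and other T cells was measured as the difference of mean log2(TPM + 1), and 1 or more was called higher. In the HIP sort 36 of the 37 genes were higher in dividing cells, where 30.7% of all genes were. In the Ins sort 37 of 37 were higher, where 26% of all genes were. None was lower by 1 or more in either sort, where 0.841% of all genes in HIP and 0.229% in Ins cells were. The HIP sort had a median difference of 5.38 over the 37 genes, against 0.25 over all genes, and the Ins sort 4.71, against 0.24 over all genes. The largest was that of Rrm2, the regulated subunit of ribonucleotide reductase, at 8.34 in the HIP and 7.23 in the Ins sort. The gene not called in the HIP sort was Gins1, a GINS subunit, with a difference of 0.59. Among genes detected in 10% or more of the cells compared, the shares called higher were 54.2% in the HIP and 51.1% in the Ins sort, and 18 and 29 of the 37 genes were detected that often. Because the annotation was itself made from these expression values, the counts describe it and test nothing.

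Subunits of the helicase were among the most often detected genes of the dividing class. Over the 8 genes of helicase loading the share of dividing cells with the gene ran from 54.5% to 93.2%, with a median of 85.2%, against 1.06% to 41.8% of other T cells with a median of 10.8%. Mcm6, a subunit of the replicative helicase, was detected in 41 of 44 dividing cells (93.2%, 95% interval 81.3% to 98.6%). Its level in HIP dividing cells was 129.8 TPM at the lowest, 578 at the median and 1409 at the highest, and in Ins dividing cells 0, 887 and 2421 TPM. Other T cells carried it in 157 of 376 cells (41.8%), with a median of 0 and a maximum of 3415 TPM in the HIP sort and of 0 and 2333 TPM in the Ins sort, so the level ranges of the classes overlapped.

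Mcm4 and Mcm5, further subunits of the same ring, were each detected in 39 of 44 dividing cells (88.6%). Mcm5 had 340 TPM at the median in HIP dividing cells (range 0.52 to 1098) and 461.3 TPM in Ins dividing cells (range 0 to 1318). Among other T cells, 14 of 175 from the HIP sort and 24 of 201 from the Ins sort had it. For Mcm4 the medians were 208 TPM in HIP dividing cells (range 0 to 531) and 217 TPM in Ins dividing cells (range 0 to 592), with detection in 24 of 175 HIP and 40 of 201 Ins other T cells. The loaders themselves were carried less evenly in the dividing class. Cdc6 was detected in 24 of 44 dividing cells and 4 of 376 other T cells. Cdt1 was detected in 27 of 44 dividing cells and 32 of 376 other T cells.

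Helicase activation and cyclin E genes had the lowest group medians, at 52.3% and 34.1% of dividing cells, although single genes of other groups lay below Gins2. Cdc45, which travels with the helicase at the fork, was found in 23 of 44 dividing cells (52.3%, 36.7% to 67.5%) and 7 of 376 other T cells (1.86%). Gins2, a subunit of the GINS complex, was found in 27 of 44 dividing cells (61.4%) and 12 of 376 other T cells (3.19%), with medians of 223 TPM for HIP and 123 TPM for Ins dividing cells. Gins1, of the same complex, had the lowest share of the 37, at 9 of 44 dividing cells (20.5%) and 3 of 376 other T cells. None of the 175 HIP other T cells carried it, which allows a share of up to 1.71%. Among the E cyclins, which start S phase with Cdk2, Ccne1 was detected in 18 of 44 dividing cells (40.9%) and 10 of 376 other T cells (2.66%). Ccne2 was detected in 12 of 44 dividing cells and 7 of 376 other T cells, all 7 from the HIP sort.

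Polymerase genes stood between these groups, in 40.9% to 68.2% of dividing cells. Pold1, the catalytic subunit of the lagging strand polymerase delta, was detected in 30 of 44 dividing cells (68.2%) and 23 of 376 other T cells (6.12%), with medians of 132 TPM for HIP and 73.3 TPM for Ins dividing cells. Pola1, the catalytic subunit of the priming polymerase alpha, was detected in 27 of 44 dividing cells (61.4%) and 14 of 376 other T cells (3.72%). Its levels were low even where it was detected, with a maximum of 98.2 TPM for HIP and 168 TPM for Ins dividing cells. Prim1, the small primase subunit, was in 26 dividing cells, Pola2, an accessory subunit of polymerase alpha, in 24, Prim2, the large primase subunit, in 20, and Pole, the catalytic subunit of the leading strand polymerase epsilon, in 18.

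Clamp and clamp loader genes were in 70.5% to 86.4% of dividing cells. Pcna, the sliding clamp, was detected in 38 of 44 dividing cells (86.4%) and 92 of 376 other T cells (24.5%). Its median was 750 TPM in HIP dividing cells (range 0 to 1351) and 582 TPM in Ins dividing cells (range 0 to 3046). Rfc2, a subunit of the clamp loader, was likewise in 38 of 44 dividing cells and in 77 of 376 other T cells (20.5%), and its highest value anywhere, 10195 TPM, lay in an Ins other T cell. Pcna-ps1 and Pcna-ps2 are named pseudogenes of the clamp, so reads could be split between copies. Exons of Rfc2 overlap those of Lat2, and no source used here names the strand setting of the counting, so these levels are uncertain.

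Of the genes of single-stranded DNA and Okazaki fragments, Lig1, the ligase that joins the fragments, was detected in 38 of 44 dividing cells (86.4%) and 24 of 376 other T cells (6.38%). Fen1, the nuclease that trims their flaps, was in 35 of 44 dividing cells (79.5%) and 36 of 376 other T cells (9.57%), and its exons overlap those of Tmem258. Rpa2, a subunit of the protein that coats single-stranded DNA, was in 31 of 44 dividing cells (70.5%) and in 89 of 376 other T cells (23.7%). The share of Rpa2 thus stood closer between the classes than that of Lig1 or Fen1.

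Nucleotide supply had the highest median share of the groups, 88.6%, with its 5 genes in 84.1% to 90.9% of dividing cells. Tyms, thymidylate synthase, was detected in 40 of 44 dividing cells (90.9%), with a median of 311 TPM in HIP (range 0.49 to 529) and 83.3 TPM in Ins dividing cells (range 0 to 439). Rrm1, the large subunit of ribonucleotide reductase, was in 39 of 44 dividing cells (88.6%) and 37 of 376 other T cells (9.84%), and in HIP dividing cells it was present in 9 of 9 at 65.3 TPM or more. Dut, which removes dUTP from the nucleotide pool, was also in 39 of 44 dividing cells, and in 44 of 376 other T cells (11.7%). Rrm2 separated the classes most by share of the group, with 37 of 44 dividing cells (84.1%) and 9 of 376 other T cells (2.39%, 1.10% to 4.50%). Its median was 970 TPM in HIP dividing cells (range 0 to 2038) and 446.8 TPM in Ins dividing cells (range 0 to 2411). Tk1, the thymidine salvage kinase, was in 37 of 44 dividing cells and 22 of 376 other T cells.

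Chromatin and histone genes closed the list. Slbp, which binds the stem-loop of histone mRNA, was detected in 36 of 44 dividing cells (81.8%) and 77 of 376 other T cells (20.5%). Uhrf1, which brings the maintenance methyltransferase to newly copied DNA, was in 33 of 44 dividing cells (75%) and 16 of 376 other T cells (4.26%). Its median was 176 TPM in HIP dividing cells (range 0 to 361) and 113 TPM in Ins dividing cells (range 0 to 482). Hells, a chromatin remodeller, was in 27 dividing cells, and Chaf1a and Chaf1b, the large and middle subunits of chromatin assembly factor 1, were in 24 and 22.

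**Figure D2:**
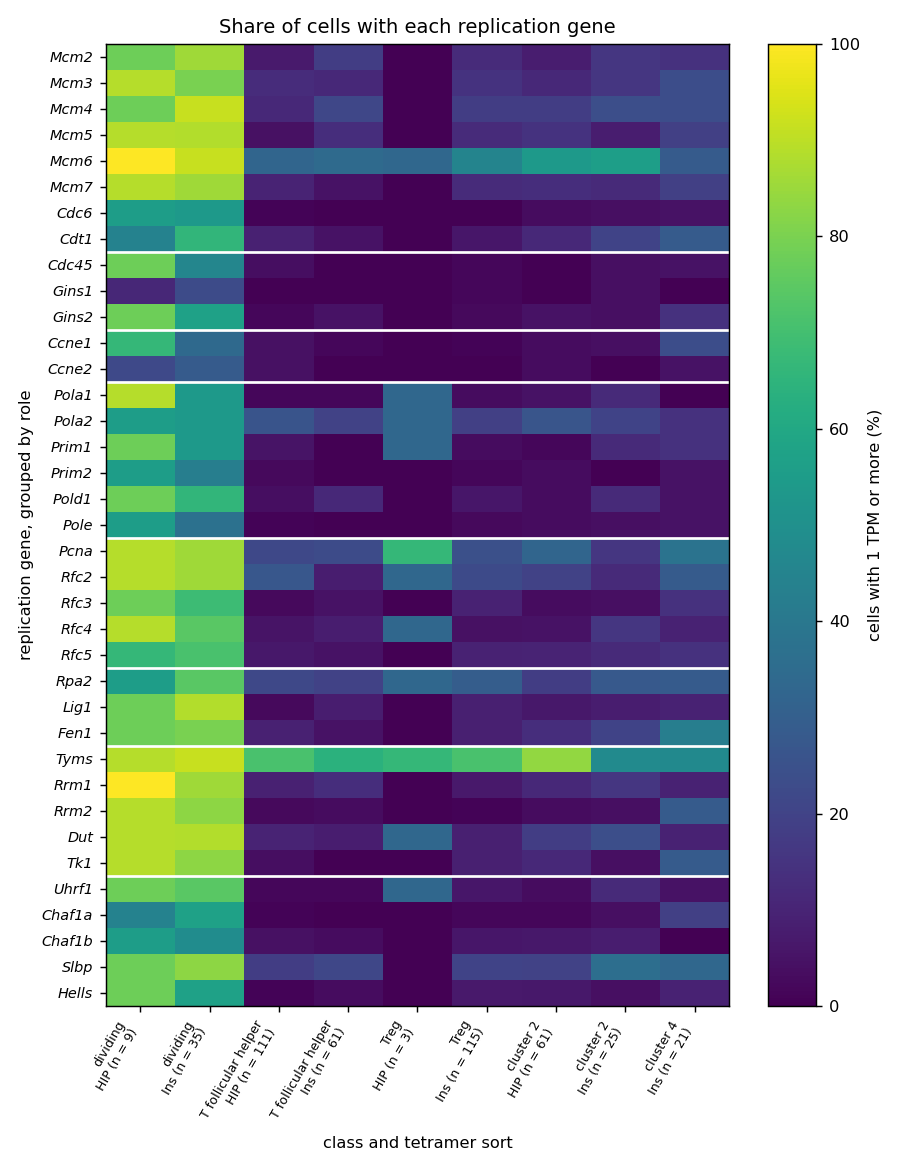
Rows are the 37 replication genes grouped by role with white lines between roles, columns are the annotated classes in each tetramer sort, and colour is the share of cells at 1 TPM or more. The 2 dividing columns are bright for nearly all rows, and outside them the brightest rows are Tyms and Mcm6, at 70.5% and 41.8% of all other T cells.

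Detections in other T cells were concentrated in a few genes. Tyms, Mcm6, Pcna, Rpa2, Pola2, Rfc2 and Slbp, 7 of the 37, made up 55.5% of the 1518 detections. At the other end, 20 of the 37 genes were each detected in under 7% of other T cells, and 32 of the 37 in at least 50% of dividing cells. Tyms was the most frequent, in 132 of 175 HIP cells (75.4%) and 133 of 201 Ins cells (66.2%). Its level there was low, with a median of 5.59 TPM in the other T cells that had it, against 103 TPM in the dividing cells that had it. At a threshold of 10 TPM, Tyms was detected in 35 of 44 dividing cells (79.5%) and 91 of 376 other T cells (24.2%). Pola2 behaved alike, with medians of 157 TPM in dividing and 2.63 TPM in other T cells that had it, and at 10 TPM it was in 21 of 44 dividing cells (47.7%) and 35 of 376 other T cells (9.31%). A pseudogene named Tyms-ps exists, and its part in the low values was not tested.

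Where a transcript was detected, its level was not generally lower in other T cells. The median level where detected was higher in other T than in dividing cells for 26 of the 37 genes, and higher in dividing cells for 11. The share over all genes was not computed, so this count has no background. Some of these medians rest on few other T cells, such as 3 for Gins1, 4 for Cdc6 and 5 for Chaf1a. Cdt1 was the clearest of the 26 among genes in over 8% of other T cells, at 176 TPM in dividing and 618 TPM in other T cells where detected. Mcm6, one of the 11, had 991 TPM in dividing and 507 TPM in other T cells where detected. Rrm2 had 817 TPM in dividing and 213 TPM in other T cells where detected. TPM is a share of a cell's captured RNA, and dividing cells had more genes detected, 3614.5 against 2002.5 at the median. What this adds to these medians was not tested.

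**Figure D3:**
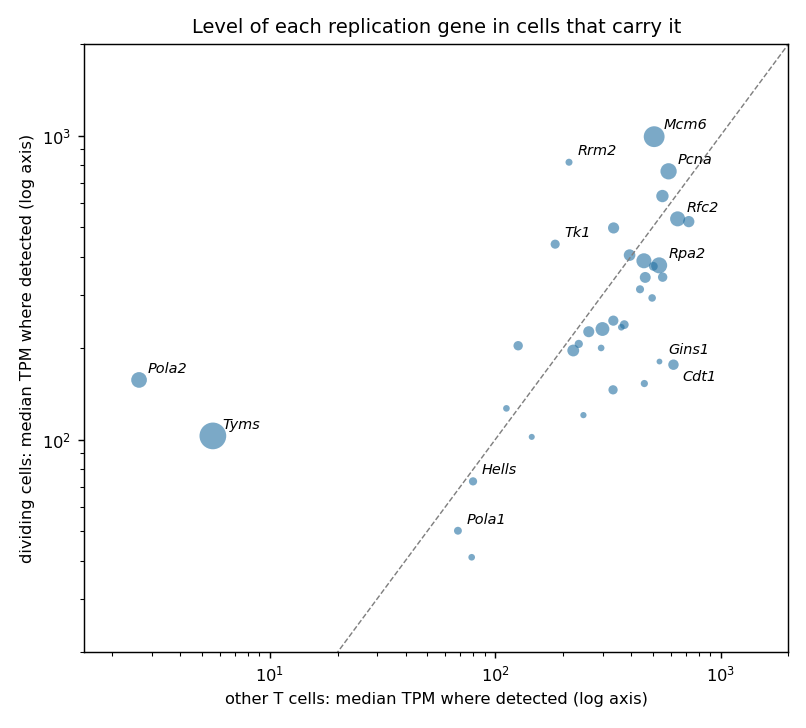
Each point is 1 replication gene, with its median TPM over the other T cells in which it was detected on the x axis and over the dividing cells in which it was detected on the y axis, both on log axes, and point area growing with the share of other T cells that carry it. Points under the dashed line of equality are the 26 genes with a higher median in other T cells, and Tyms (103 TPM in dividing and 5.59 TPM in other T cells) and Pola2 (157 and 2.63 TPM) lie far to the left.

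Co-detection of the genes was counted in each class. All 6 of Mcm2 to Mcm7, which form 1 ring, were detected together in 29 of 44 dividing cells (65.9%, 50.1% to 79.5%), made up of 7 of 9 HIP and 22 of 35 Ins cells. The product of the 6 separate shares would give 19.1 cells. In other T cells all 6 were found in 8 of 376 (2.13%, 0.923% to 4.15%), where the product of the shares gives 0.00408 cells, and 141 of the 376 had none of the 6. Over the 666 pairs of genes, 631 in dividing cells and 648 in other T cells were seen together in more cells than the product of their shares. Pairs of other genes were not counted, so these numbers have no background and mark no trait of replication genes. The cells with both, summed over pairs, were 1.09 times the summed product in dividing cells and 1.82 times in other T cells. The ratio of a pair cannot pass the inverse of its larger share. Shares were high in dividing cells, which leaves the ratio less room there, so the 2 ratios do not compare the classes. Cells of each class differed in the number of genes detected, from 1622 to 5929 in dividing and from 625 to 3593 in other T cells, and its part in co-detection was not tested.

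Pairs of partner subunits were counted in the same way. Where both shares are high, as for Rrm1 and Rrm2 in dividing cells, the number of cells with both can move little from the product. Rrm1 and Rrm2, the 2 subunits of ribonucleotide reductase, were together in 35 of the 41 dividing cells with either, where the product of shares gives 32.8. In other T cells they were together in 5 of the 41 cells with either, where the product gives 0.886. Prim1 and Prim2 of primase were together in 12 of 34 dividing cells with either, and the product gives 11.8. Chaf1a and Chaf1b were together in 14 of 32 dividing cells with either, against a product of 12, and in other T cells in 3 of 22 with either, against a product of 0.266.

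Cells outside the dividing class that carried many of the genes were then counted, with 10 or more of the 37 taken as many. There were 23 among 397 cells (5.79%, 3.71% to 8.57%), against 42 of 44 in the dividing class. By class these were 2 of 111 HIP follicular helper cells (1.80%) and 2 of 61 Ins follicular helper cells (3.28%), 0 of 3 HIP Tregs and 8 of 115 Ins Tregs (6.96%), 5 of 61 HIP (8.20%) and 2 of 25 Ins cells of cluster 2 (8.00%), and 4 of 21 cells of cluster 4 (19.0%). The 3 HIP Tregs set no useful limit on a share. The intervals of all these classes overlapped, for instance 3.05% to 13.2% in Ins Tregs, 2.72% to 18.1% in HIP cells of cluster 2 and 5.45% to 41.9% in cluster 4. Just under the threshold, 8 other T cells had 8 or 9 of the genes, and the dividing cells with the fewest were Ins cells with 8 and 9 and a HIP cell with 10.

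The 19 such T cells carried 10 to 32 of the replication genes, with a median of 17, and 8 of them carried 20 or more. Mcm6 was in 19 of 19, Tyms in 17, Mcm4 and Mcm5 in 16 each, Mcm3 and Rpa2 in 15 each, and Mcm2, Mcm7, Pcna and Slbp in 14 each. All 6 of Mcm2 to Mcm7 were together in 8. Genes that were frequent in the dividing class but scarce here included Rrm2, in 4 of 19 (21.1%) against 37 of 44 dividing cells (84.1%), and Uhrf1, in 5 of 19 (26.3%) against 33 of 44 (75%). Tk1 was in 7 of 19 (36.8%), against 37 of 44 dividing cells. These cells were chosen by their number of replication genes, so the shares describe them and test nothing.

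Mitosis genes were few in the same 19 cells. Of 20 genes of mitosis and late cell cycle they carried 0 to 5, with a median of 1. Dividing cells carried 0 to 20, with a median of 11, and all other T cells had a median of 1. Of dividing cells with 20 or more replication genes, 21 had 10 or more mitosis genes and 7 had 4 or fewer, the lowest being 1. The annotation that left the 19 cells out of the dividing class was made from these expression values, so their low counts test nothing. Mki67, a proliferation marker, was detected in 4 of the 19 and Top2a, the topoisomerase that untangles chromosomes, in 6. Genes above 0 ran from 1805 to 3593 in these cells, with a median of 2610, below the 3614.5 of the dividing class. Cd3e was detected in 19 of 19 and Cd4 in 17. Of 4 myeloid genes, Cd68 was in 3 of the 19 (summed level up to 317 TPM) and Lyz2, C1qb and Fcer1g in 0, against 4 of 44 dividing cells and 26 of 376 other T cells with any of the 4. Of the B cell genes, Cd79b was in 3 of the 19 (up to 373 TPM), 0 of 44 dividing cells and 8 of 376 other T cells. Cd79a was in 0 of the 19, 1 of 44 dividing cells and 4 of 376 other T cells, and Ms4a1 in 0 of the 19, 0 of 44 dividing cells and 1 of 376 other T cells. Among genes of antibody-secreting cells Sdc1 was in 0 of the 19, Xbp1 in 4 and Prdm1 in 6, of which Xbp1 and Prdm1 were also in 20 and 18 of 44 dividing cells. Cd8a was in 0 and Cd8b1 in 3, at 2.47 TPM or less. Any of 4 islet hormone genes was found in 4 of the 19 (summed level up to 2407 TPM), 10 of 44 dividing cells and 53 of 376 other T cells, and Ins2, an insulin gene, was in 2 of the 19, both in cluster 2. What RNA of other cells adds to the replication gene counts was not tested. Foxp3, the defining factor of Tregs, was in 8 of the 8 Tregs, 2 of the 4 follicular helper cells and 0 of the 7 cells of cluster 2. The fullest single cell was a HIP follicular helper cell with 32 of the replication genes, 19136 TPM summed over them, 1673 TPM of the follicular helper receptor gene Cxcr5 and 0 of the 20 mitosis genes. The 4 cells of cluster 4 differed from these T cells in carrying 8 to 18 mitosis genes beside 12 to 28 replication genes. Sdc1 was in 4 of these 4 and Cd3e in 1.

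Inside the dividing class the 2 programmes combined in all ways. Of the 44 cells, 21 had 20 or more replication genes and 10 or more mitosis genes, 13 had 20 or more replication genes with fewer mitosis genes, 7 had fewer replication genes with 10 or more mitosis genes, and 3 were low in both. In the HIP sort these counts were 6, 1, 2 and 0 of 9 cells, and in the Ins sort 15, 12, 5 and 3 of 35 cells. One HIP cell with 15 replication genes had 20 of the 20 mitosis genes, and 1 Ins cell with 14 replication genes had none.

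**Figure D4:**
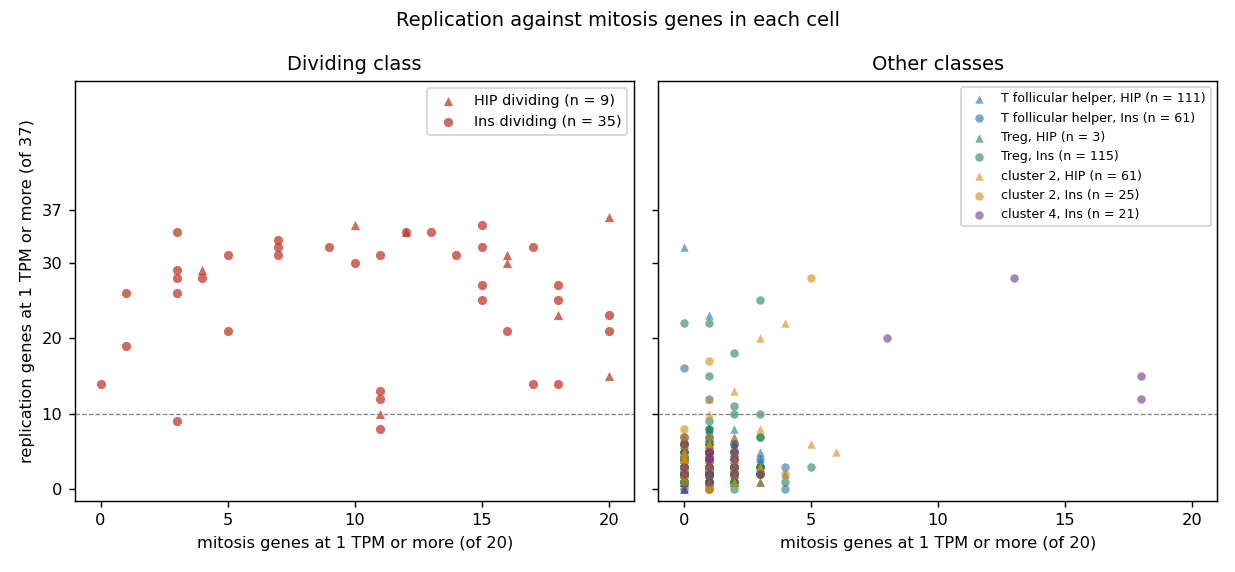
Each point is 1 cell, with the number of 20 mitosis genes on the x axis and of the 37 replication genes on the y axis, the dividing class on the left, all other classes on the right, and a dashed line at 10 replication genes. On the right the 19 T cells above the line lie at 0 to 5 mitosis genes, and the 4 cells of cluster 4 lie at 8 to 18.

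HIP and Ins dividing cells were compared gene by gene. Of the 37 genes, 11 were higher in HIP dividing cells by 1 or more in mean log2(TPM + 1), or 29.7%, where 12.1% of all genes were. Lower in HIP were 3 genes, or 8.11%, where 7.03% of all genes were, and the other 23 lay within 1. Each of the 37 was detected in 10% or more of the 44 cells, and over all genes detected that often 19.1% were higher and 12% lower, so the share lower in HIP lay between these backgrounds. The median difference was 0.63 over the 37 genes and 0.00 over all genes. With 9 and 35 cells and 1 sample a sort, these are differences between 2 sets of cells. HIP dividing cells had more genes detected, 3992 against 3610 at the median, and Foxp3 was absent from all 9 HIP cells (0 of 9, a limit of 33.3%) but present in 27 of 35 Ins dividing cells. Gene number and the share of Foxp3-positive cells thus moved with the sort, and their part was not tested.

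The 3 largest differences among the 11 genes higher in HIP were those of Cdc45, Pola1 and Prim1, while Gins1 of the helicase activation group was lower in HIP and Pola2 and Prim2 lay within 1. Cdc45 differed by 2.63, with 7 of 9 HIP and 16 of 35 Ins cells positive and medians of 170 TPM in HIP (range 0 to 437) and 0 TPM in Ins cells (range 0 to 702). Exons of Cdc45 overlap those of Ufd1. Pola1 differed by 2.12, with 8 of the 9 HIP and 19 of 35 Ins cells positive and medians of 48.8 TPM for HIP and 8.30 TPM for Ins cells. Prim1 differed by 1.82, with 7 of 9 HIP and 19 of 35 Ins cells positive and medians of 274 TPM for HIP and 91.1 TPM for Ins cells. The ranges of both sorts overlapped for each of these genes, since some cells of each sort held 0.

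Gins2 (1.77) and the clamp loader subunit Rfc4 (1.76) followed. Rrm1 (1.39) stood below Tyms and Ccne1, which are given further on. Exons of Gins2 overlap those of Gse1. Rfc4 had a median of 350 TPM in HIP (range 0 to 987) and 191 TPM in Ins dividing cells (range 0 to 616), and its exons overlap those of Eif4a2. All 9 HIP dividing cells and 30 of 35 Ins dividing cells had Rrm1, with medians of 232 TPM in HIP (range 65.3 to 692) and 182 TPM in Ins cells (range 0 to 743). Mean TPM moved less than the log2 means, by 1.60 times for Cdc45, 1.51 for Pola1, 1.12 for Prim1, 1.35 for Gins2, 1.74 for Rfc4 and 1.22 for Rrm1 (HIP over Ins). Tyms (1.48), Ccne1 (1.47), Rfc3 (1.38), Rrm2 (1.15) and Pole (1.07) were the remaining 5 of the 11. For Ccne1 the mean level went the other way, at 68.1 TPM in HIP and 74.1 TPM in Ins dividing cells. For Tyms the share was slightly lower in HIP, with 8 of 9 HIP and 32 of 35 Ins dividing cells positive.

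Rpa2, Cdt1 and Gins1 were the genes lower in HIP dividing cells, by differences of -1.69, -1.54 and -1.20, and their number was near the share of all genes. Rpa2 was in 5 of 9 HIP and 26 of 35 Ins cells, with medians of 43.1 TPM in HIP (range 0 to 628) and 269 TPM in Ins cells (range 0 to 809). Cdt1 was in 4 of 9 HIP and 23 of 35 Ins cells, with means of 67.8 TPM for HIP and 148 TPM for Ins cells. Gins1 was in 1 of 9 HIP and 8 of 35 Ins cells, with means of 4.37 TPM for HIP and 63.5 TPM for Ins cells.

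Read block by block, 5 genes (Cdc45, Ccne1, Pola1, Tyms and Rrm1) had a higher mean in both HIP blocks than in all 3 Ins blocks, 5 of 37 where 8.13% of all genes did so. A lower mean in both HIP blocks was found for 3 (Rpa2, Cdt1 and Gins1), where 8.41% of all genes had one. The HIP blocks held 2 and 7 dividing cells, and the Ins blocks 15, 10 and 10. With only the 2 dividing cells of the first HIP block, 27 of the 37 genes would be called higher, and without Ins block 1 the number would be 17. Without the first HIP block 6 genes would be lower, and a pseudocount of 10 TPM left 5 higher and 1 lower. The share over all genes was not computed with blocks left out or with this pseudocount.

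**Figure D5:**
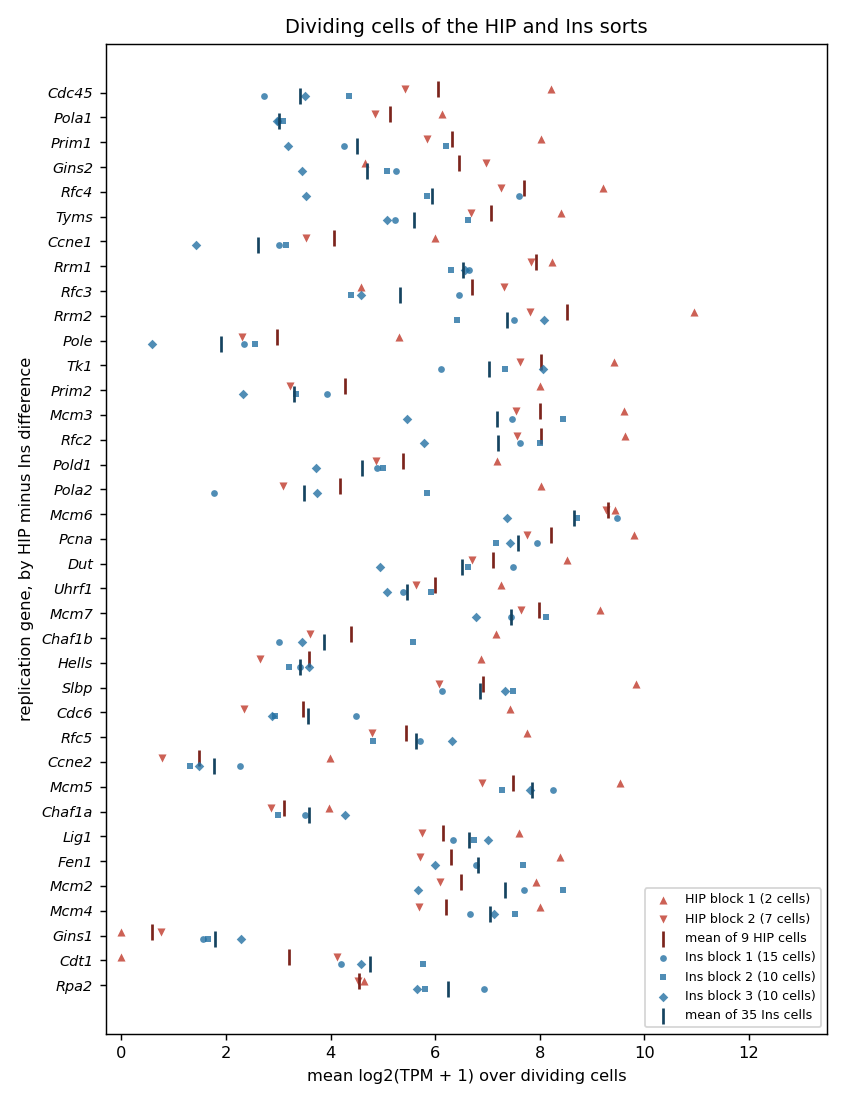
Rows are the 37 genes ordered by the HIP minus Ins difference and the x axis is mean log2(TPM + 1) over dividing cells, with red marks for the 2 HIP blocks and blue marks for the 3 Ins blocks, and vertical bars at the means of the 9 HIP and the 35 Ins cells. Cdc45 and Pola1 are at the top, with differences of 2.63 and 2.12, and Rpa2, at -1.69, is at the bottom.

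Outside the dividing class the sorts were compared in follicular helper cells and in cluster 2. In follicular helper cells 1 of the 37 was higher in HIP by 1 or more (0.885% of all genes were) and 0 were lower (1.61% of all genes were), with a median difference of 0.06. That gene was Rfc2, at a difference of 1.57, with 30 positive cells among 111 HIP cells (27.0%, 19.0% to 36.3%) and 5 among 61 Ins cells (8.20%, 2.72% to 18.1%). A pseudocount of 10 TPM ended this call. In cells with 2500 or more genes, 17 HIP and 10 Ins follicular helper cells, 8 of the 37 were higher and 3 lower. For these fewer cells the share over all genes was not computed, so the shares above are no background for them. In cluster 2 Pcna was higher in HIP (1.44, where 3.78% of all genes were higher), with 20 positive cells among 61 HIP cells (32.8%, 21.3% to 46.0%) and 4 among 25 Ins cells (16%, 4.54% to 36.1%). Rfc4 (-1.05) and Slbp (-1.05) were lower in HIP (3.02% of all genes were), and the median over the 37 was -0.12. Slbp was in 12 of 61 HIP and 9 of 25 Ins cells of cluster 2, and Rfc4 in 3 of 61 HIP and 4 of 25 Ins cells. These 3 of 37 calls stood near the shares of all genes, and neither Rfc4 nor Slbp nor Pcna kept its call in cluster 2 without the first HIP block or with a pseudocount of 10 TPM. In cells of cluster 2 with 2500 or more genes, 14 HIP and 4 Ins cells, 3 of the 37 were higher and 24 lower. The 4 Ins cells carried 6 to 28 of the 37 genes (median 12), and the 14 HIP cells 2 to 22 (median 5.5). Cells with 17 and 28 of the genes, counted above as carrying many, were among the 4. The share over all genes was not computed for these cells, so these counts have no background. Tregs were not compared, as the HIP sort held 3.

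Neighbouring genes of the cell cycle were counted the same way, beside 30.7% of all genes higher in dividing cells in the HIP and 26% in the Ins sort. Among genes detected in 10% or more of the cells compared, these shares were 54.2% in the HIP and 51.1% in the Ins sort. Of 34 further replication genes, 31 in the HIP and 28 in the Ins sort were higher in dividing than in other T cells, led by Tipin, a fork protection factor, at 7.15 in the HIP and 6.70 in the Ins sort. Asf1b, a histone chaperone, followed at 6.81 in the HIP and 6.57 in the Ins sort. Between HIP and Ins dividing cells 10 of these 34 were higher and 3 lower, where 12.1% of all genes were higher and 7.03% lower. Over genes detected in 10% or more of these dividing cells, 19.1% were higher and 12% lower. Among 12 genes that control the G1 to S step, 6 in the HIP and 8 in the Ins sort were higher in dividing cells, led by the kinase genes Cdk4 (6.04 in HIP, 5.21 in Ins) and Cdk2 (3.26 in HIP, 3.46 in Ins). E2f1, the gene of an E2F factor, was not among them, at 0.80 in the HIP and 0.72 in the Ins sort. The 6 of 12 in the HIP sort lay between the HIP backgrounds of 30.7% and 54.2%. Of 6 inhibitors of cyclin-dependent kinases in the table, Cdkn2d (5.36 in HIP, 2.13 in Ins) and Cdkn1a (1.37 in HIP, 1.70 in Ins) were higher in dividing cells, 2 of 6 in each sort and so near the share of all genes. For Cdkn1a the mean level in the HIP sort went the other way, at 50.7 TPM in dividing and 60.6 TPM in other T cells. The 20 mitosis genes were higher in dividing cells in 20 of 20 cases in the HIP and 19 of 20 in the Ins sort. Between HIP and Ins dividing cells 12 of the 20 were higher in HIP and 0 lower. Beside them stand the same 12.1% and 7.03% of all genes, and 19.1% and 12% of genes detected in 10% or more of these cells. The median over the 20 was 1.28, and Plk1 (3.47) and Ccnb1 (2.81) led.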

How the data were processed

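The authors deposited expression on a natural log scale, with 13561 genes and 441 cells. After exponentiation and subtraction of 1 the values of each cell added up to 100000, so they were read as ln(TPM/10 + 1) and turned back into TPM. The plan had assumed linear TPM. A deposited annotation table gave each cell's class and the authors' count of genes above 0, which matched the expression table and the labels in 441 of 441 cells. The submitters' processing notes name TopHat, Bowtie, RSEM 1.2.8 and mm10, with no role. Per the labels' protocols, reads were paired-end. The sources used here do not give the clustering or the filters on cells and genes, and depth per cell is unknown. Cells were sorted singly and no doublet caller was run. An exact 0 can be a failed capture, and Gapdh was at 0 in 29 cells. Pairs of cells with identical values numbered 0.

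The genes and lists were chosen with earlier results of these data known. Each sort was 1 sample, so no test was run. Differences of mean log2(TPM + 1) were called at 1, on a scale that understates changes of low genes and follows the share of cells at 0. Blocks of 96 cell numbers described spread. Values are named for the 2 genes of each role (1 for cyclin E) with the highest share in dividing cells, ties included, for up to 6 genes past 1 each way between HIP and Ins dividing cells whose share and mean TPM shared the sign, and, for other lists, the 2 largest differences. Genes named beyond these, such as Rrm2 and E2f1, were chosen after their values were seen. Positions and exon overlaps came from GENCODE M21, where exons of 13 of the 37 genes overlap another gene and 2 have a named pseudogene. The 13 are Mcm7, Cdc45, Gins2, Ccne2, Pole, Rfc2, Rfc4, Rfc5, Lig1, Fen1, Tk1, Chaf1a and Slbp. Promoters came from RefSeq. The difference calculation was tested on simulated levels that were above 0 in every cell. It was therefore not tested on genes at 0 in many cells, as most of the 37 genes were. Python 3.11.15, pandas 2.3.3, numpy 2.4.6, scipy 1.17.1 and matplotlib 3.10.9 were used. Alternatives were a pseudocount of 10 TPM, detection at 10 TPM, genes in 10% or more of cells, cells with 2500 or more genes, other minimum numbers of replication genes, and each block left out. One listed B cell marker is not reported here.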

Additional observations from a re-analysis of the deposited data

How the results depend on the processing

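No paired analysis was possible because each sort is 1 sample and the cell numbers pair nothing. The number of replication genes per cell kept its gap between dividing and other T cells under each alternative run, with medians over blocks left out of 29 to 32.5 in HIP and 26 to 28 in Ins dividing cells, against 3 in HIP and 3 in Ins other T cells. With genes in 10% or more of HIP cells only, 18 of the 37 passed and 18 were higher in dividing cells, where 54.2% of passing genes were. With 9 dividing and 175 other T cells, a gene could not pass this filter through the dividing cells alone. The classes were made from these expression values, so this count is still no support. All of Mcm2 to Mcm7 were detected in 61.8% to 73.5% of dividing cells over blocks left out.

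Counts between HIP and Ins cells were less steady, and the cause was not tested. Apart from the filter on genes, no share over all genes was computed for these alternatives. A pseudocount of 10 TPM gave 5 higher and 1 lower in dividing cells, 0 higher in follicular helper cells, and 0 higher and 0 lower in cluster 2. Cells with 2500 or more genes gave 5 lower in dividing cells, 8 higher and 3 lower in follicular helper cells, and 3 higher and 24 lower in cluster 2, where 4 Ins cells were left. The filter on genes left 1 lower in cluster 2. Leaving out blocks gave 8 to 27 higher and 3 to 6 lower in dividing cells, 1 to 1 higher and 0 to 2 lower in follicular helper cells, and 0 to 2 higher and 0 to 7 lower in cluster 2. Cells outside the dividing class numbered 121 at 5 or more replication genes, 15 at 15 or more, and 16 to 20 over blocks left out. Depth is unknown, so a gene at 0 in a cell may be present below detection.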
